A study of Rattus norvegicus with 6 samples.

Results

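Lungs of rats that had inhaled ultrafine nickel oxide (NiO) were compared with lungs of rats that had breathed clean air, 3 days after the last exposure. The arrays were taken by label alone: the 4 arrays of the NiO group and the 3 arrays of the clean-air group at that time, which are 7 of the 23 arrays and 2 of the 6 groups of the series. Both groups were male Wistar rats, 9 weeks old at the start, kept in a whole-body chamber for 6 hours a day on 5 days a week over 4 weeks. They differed, per the labels, in the aerosol alone, and NiO was the positive control of a study of C60 fullerene. No particle dose is used here. Right lungs were taken after saline had been run through the vessels, homogenised whole, and their Cy3-labelled RNA was read on 1-colour whole rat genome arrays. Of 5 rats a group, 4 right lungs were meant for arrays. The comparison asks which genes differ in lung tissue soon after NiO inhalation, and how far the 4 NiO arrays agree on them.

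The lung clears inhaled particles mainly through alveolar macrophages, which engulf them and, when loaded or damaged, release chemokines. CXC chemokines such as Cxcl1 and Cxcl2 draw neutrophils through the receptors Cxcr1 and Cxcr2, and CC chemokines such as Ccl2 and Ccl7 draw monocytes that become new macrophages. Poorly soluble metal oxides also release metal ions inside lysosomes and are known to provoke the oxidative stress enzymes controlled by Nrf2. In homogenised tissue, fewer cells of a type and less RNA per cell cannot be told apart.

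The promoters of 2 chemokine genes and 2 matrix metalloproteinase genes that lead the results are shown first, because Cxcl1 and Cxcl2 lie side by side and rose together and because the metalloproteinases carry the same motif. Each line holds the 150 bases before the annotated start, 5′ to 3′ on the gene's strand, from RefSeq on build GRCr8. Capitals mark the kappaB motif (GGG, then NN, then TTTCC) in the chemokine promoters and the AP-1 motif TGACTCA in the others, searched on both strands with no overlap between the sites shown.
Cxcl1 (chr14:17479322-17479471, minus strand): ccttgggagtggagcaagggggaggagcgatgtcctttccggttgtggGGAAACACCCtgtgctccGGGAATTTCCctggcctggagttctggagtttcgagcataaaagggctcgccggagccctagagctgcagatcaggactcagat
Cxcl2 (chr14:17467256-17467405, minus strand): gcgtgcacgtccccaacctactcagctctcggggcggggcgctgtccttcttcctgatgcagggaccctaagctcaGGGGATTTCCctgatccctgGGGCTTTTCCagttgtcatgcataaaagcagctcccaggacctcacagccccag
Mmp12 (chr8:12866502-12866651, plus strand): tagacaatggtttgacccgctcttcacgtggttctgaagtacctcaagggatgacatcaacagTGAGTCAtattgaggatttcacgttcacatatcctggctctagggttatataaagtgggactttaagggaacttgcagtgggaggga
Mmp7 (chr8:13132893-13133042, plus strand): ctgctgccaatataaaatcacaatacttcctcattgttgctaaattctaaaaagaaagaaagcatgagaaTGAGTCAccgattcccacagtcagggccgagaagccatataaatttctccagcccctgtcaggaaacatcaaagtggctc
Cxcl1 holds a kappaB match from base -102 and another from -84, counted from the start, and Cxcl2 holds them from -74 and -54. The AP-1 match begins at -87 in Mmp12 and at -80 in Mmp7. Over the full window of 250 bases before to 50 after the start, 8988 of the genes tested had a promoter in the table, and 1.70% of these held the kappaB motif and 3.70% the AP-1 motif. Among genes called higher in NiO lungs, kappaB was present in 9 of 191 promoters (4.71%) and AP-1 in 14 of 191 (7.33%). Among genes called lower, kappaB was present in 1 of 89 (1.12%) and AP-1 in 4 of 89 (4.49%). Other motifs were searched as well. The antioxidant response motif TGACNNNGC was present in 23 of the 191 higher promoters (12.0%), against 14.4% of the 8988. The cell cycle homology motif TTTGAA was present in 34 of 191 (17.8%) against 11.8%, and the E2F motif TTTCCCGC in 1 of 191 (0.524%) against 1.94%. Among genes called lower they were present, in that order, in 16, 11 and 0 of 89 (18.0%, 12.4% and 0%). All of these are matches of letters, not shown binding sites.

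All values below are levels, meaning log2 of the processed signal minus the 75th percentile of its array, so that a level of 0 is the 75th percentile and a difference of 1 is a 2-fold change. On each of the 7 arrays 62.6 to 68.0 percent of spots cleared the background test of the scanner software. The 75th percentile signal itself was 646, 618 and 678 on clean-air arrays 1 to 3 and 638, 398, 362 and 582 on NiO arrays 1 to 4, so NiO arrays 2 and 3 were the dimmest. Lung identity was plain on all 7: the surfactant gene Sftpc lay between 8.54 and 9.50, Sftpb between 7.70 and 8.38, the club cell gene Scgb1a1 between 3.08 and 4.55, and the type I cell gene Ager between 5.07 and 6.00. Markers of heart muscle and fat cells were read too, and the arrays do not show where that RNA came from. Of heart muscle markers 16 of 17 on the array could be tested, with Myh6 between 4.59 and 5.63, and their mean level was 0.77 to 1.48 in clean-air and 0.98 to 1.29 in NiO lungs. Of fat cell markers 13 of 15 could be tested, with mean levels of -1.09 to 0.40 and -0.47 to 0.34; the part of these tissues in any result was not tested.

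Genes higher in NiO lungs included the macrophage protease gene Mmp12, the chemokine genes Cxcl1, Cxcl2, Ccl2 and Ccl7 and the neutrophil genes Cd177 and Lcn2, and genes lower in them included Tac1, Serpinb10 and Fbp1. By list, 12 of 29 markers of activated macrophages, 6 of 16 CC chemokines, 2 of 11 CXC chemokines, 4 of 20 neutrophil markers and 2 of 19 metalloproteinase and inhibitor genes were called, all higher. limma, with Benjamini-Hochberg adjustment and a threshold of 0.05, called 831 of 22720 genes (3.66 percent). Of these 541 were higher (2.38 percent) and 290 lower (1.28 percent) in NiO lungs, and 371 (1.63 percent) and 186 (0.819 percent) changed by at least 1 log2 unit. Over all genes the median log2 fold was 0.01. Of the 831 genes, 379 have a symbol and 452 are known by a probe only. For all 831 the levels of the 3 clean-air arrays and the 4 NiO arrays did not overlap, which held for 12.0 percent of all genes with NiO higher and for 11.9 percent with NiO lower. Among the called genes, 72 were not well above background on any clean-air array and 44 on no NiO array; for such genes a bound, "at least N-fold", stands in place of a fold. The counts depend on single arrays, as the account of array agreement gives. Without NiO array 1, 3240 of all 22720 genes were called higher and 2758 lower. List counts without that array, given below, are to be read beside these.

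The largest rise was that of Mmp12, the macrophage elastase, which digests elastin of the alveolar wall. Its level was -2.81, -2.89 and -2.81 on clean-air arrays 1 to 3 and 2.95, 4.02, 3.77 and 3.56 on NiO arrays 1 to 4, read by a probe at chr8:4259057-4259413 of build rn4. Every NiO array stood over 5 log2 units above every clean-air array, and array 1 was the lowest of the 4. The log2 fold, NiO minus clean air with 4 and 3 arrays here and below, was 6.41 (standard error, SE, 0.25; limma adjusted p = 9.89e-05). Mmp7, or matrilysin, a metalloproteinase of epithelia, lay at -5.51, -5.56 and -5.88 in clean-air lungs, where no array was well above background, and at -1.41, -1.06, -1.62 and -1.26 in NiO lungs. It was at least 13.8-fold higher (adjusted p = 9.89e-05). These were the 2 called among 19 tested metalloproteinase and inhibitor genes, whose median log2 fold was -0.16.

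**Figure D1:**
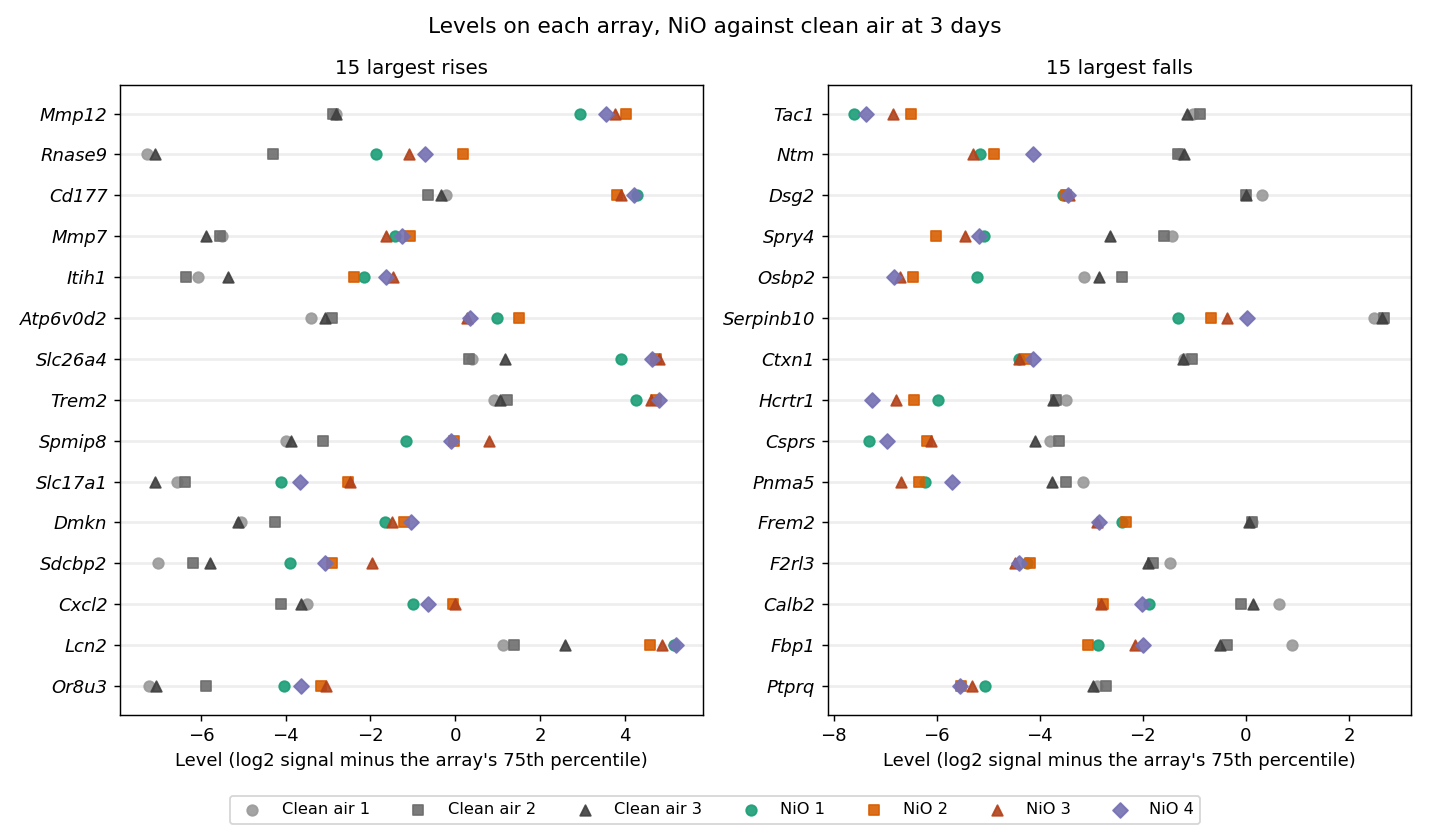
Levels of the 15 largest rises (left) and 15 largest falls (right) on each of the 7 arrays, with the level in log2 signal relative to the array's 75th percentile on the horizontal axis and 1 gene in each row. Grey marks are the 3 clean-air arrays and coloured marks the 4 NiO arrays; for no gene do they overlap, and Mmp12 shows the widest gap among the rises and Tac1 among the falls, where its 4 NiO values are not well above background.

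Trem2, a lipid-sensing receptor of macrophages, was already well expressed in clean-air lungs at 0.92, 1.22 and 1.05 and reached 4.26, 4.74, 4.63 and 4.80 in NiO lungs. The NiO arrays lay within 1 log2 unit of each other, clear of the controls, and the log2 fold was 3.54 (SE 0.17; adjusted p = 0.000173). Atp6v0d2, a subunit of the proton pump that acidifies lysosomes, lay at -3.39, -2.91 and -3.07 in clean-air and at 0.98, 1.51, 0.29 and 0.36 in NiO lungs. Here NiO arrays 3 and 4 were the low ones, and the fold was 3.91 (SE 0.31; adjusted p = 0.0017). The scavenger receptor gene Msr1 lay at -2.11, -1.23 and -2.14 in clean-air and 0.75, 1.41, 0.35 and 1.28 in NiO lungs, a rise of 2.77 (SE 0.33; adjusted p = 0.00749). In the list of activated and lipid-associated macrophage markers, 12 of 29 tested genes were called, all higher, against 2.38 percent of all genes. Besides Mmp12, Atp6v0d2, Trem2 and Msr1 these were Spp1 (2.31), Gpnmb (1.96), Lgals3 (1.43), Fabp5 (1.34), Ctsd (1.31), Ctsk (1.10), Lgmn (0.84) and Capg (0.84), which cover osteopontin, a lysosomal glycoprotein, galectin-3, a fatty acid carrier and lysosomal cathepsins. The list's median log2 fold was 0.84, and by array its median difference from the clean-air mean was 0.62, 0.87, 0.98 and 0.83 on NiO arrays 1 to 4. The number called was 20 without NiO array 1 and 6 to 9 without any other single array. Of 15 tested resident macrophage markers 1 was called higher and 1 lower. C1qa, a chain of complement C1q, rose by 0.91 (call lost without clean-air array 1, 2 or 3 or NiO array 4, adjusted p = 0.0611 to 0.0959, also with no filter on dim probes at 0.0532). Fbp1, the gluconeogenic enzyme fructose-bisphosphatase, lay at 0.90, -0.37 and -0.50 in clean-air and -2.87, -3.06, -2.16 and -2.00 in NiO lungs and fell by 2.53 on the log2 scale (adjusted p = 0.0211; call lost without clean-air array 1, 2 or 3 or NiO array 2, adjusted p = 0.0562 to 0.0657). The other 13 were not called, and the list's median was -0.07. Leaving out NiO array 1 gave 4 resident markers higher and 4 lower.

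Both neutrophil-attracting chemokines whose promoters are printed above rose. Cxcl2 lay at -3.49, -4.11 and -3.63 in clean-air lungs and at -0.99, -0.06, -0.0021 and -0.64 in NiO lungs, a log2 fold of 3.32 (SE 0.28; adjusted p = 0.0019). NiO arrays 2 and 3 were the high ones. Cxcl1 lay at 0.51, 0.26 and 0.75 in clean-air and 2.85, 3.52, 3.47 and 3.39 in NiO lungs, a fold of 2.80 (SE 0.21; adjusted p = 0.00144), with array 1 the lowest. The other 9 of 11 tested CXC chemokine genes were not called. Of CC chemokine genes 6 of 16 were called, all higher, and the list's median was 0.92. The monocyte attractants led them: Ccl7 lay at -4.24, -3.70 and -3.57 in clean-air and -1.53, -0.17, -0.86 and -0.83 in NiO lungs (fold 2.99, SE 0.32; adjusted p = 0.00505). Ccl12 lay at -5.92, -4.89 and -4.61 in clean-air and -2.64, -2.35, -2.32 and -2.32 in NiO lungs (fold 2.74, adjusted p = 0.00543), with NiO arrays 2, 3 and 4 almost equal and array 1 below them. For Ccl12 only 1 of the 3 clean-air arrays was well above background. Ccl2 lay at -2.18, -1.65 and -1.44 in clean-air and 0.57, 0.87, 0.75 and 0.84 in NiO lungs (fold 2.51; adjusted p = 0.00154). Ccl22, a ligand of the receptor Ccr4, lay at -3.31, -3.37 and -2.92 in clean-air and -0.67, -0.90, -0.91 and -0.74 in NiO lungs and rose by 2.39 (adjusted p = 0.00102); here arrays 1 and 4 were the higher ones. The called list also held Ccl3 (1.54) and Ccl17 (1.38). Leaving out 1 array gave 5 to 8 called CC genes. Of 16 tested cytokine genes of the interleukin-1, TNF and colony-stimulating families, Csf2, encoding a growth factor of macrophages, was called (fold 0.85, adjusted p = 0.0131; call lost without clean-air array 1, 2 or 3 or NiO array 4, adjusted p = 0.052 to 0.0754). Il1r1, the interleukin-1 receptor, had the widest difference of that list, -1.12 (adjusted p = 0.158). It lay at -4.67, -6.32, -6.17 and -5.26 on NiO arrays 1 to 4, so that array 1 was level with the controls (-4.51, -4.61 and -4.34). Only 1 of the 4 NiO arrays was well above background for Il1r1. Its other probe, well above background on no array, gave 0.012. Without array 1 Il1r1 was called (-1.43, adjusted p = 0.0236), and in all 4 genes of the list were then called higher and 4 lower.

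Of neutrophil markers 4 of 20 were called, all higher, with a list median of 0.24. Cd177, a surface protein of neutrophils, lay at -0.21, -0.64 and -0.34 in clean-air and 4.29, 3.82, 3.92 and 4.22 in NiO lungs, and array 1 was here the highest of the 4. Its fold of 4.46 (SE 0.17; adjusted p = 9.89e-05) became 4.22 with normexp background correction. Lcn2, the iron-scavenging lipocalin of neutrophils and epithelium, lay at 1.13, 1.39 and 2.59 in clean-air and 5.16, 4.61, 4.87 and 5.22 in NiO lungs, with clean-air array 3 above the other two, and rose by 3.26 (SE 0.35; adjusted p = 0.00515). Cxcr1 rose by 1.31 (call lost without clean-air array 1, 2 or 3 or NiO array 4, adjusted p = 0.0537 to 0.0959) and the decoy receptor gene Il1r2 by 1.00 (call lost without clean-air array 1 or 3, adjusted p = 0.061 to 0.0642). The abundant neutrophil granule genes S100a8 (log2 fold -0.62, adjusted p = 0.191) and S100a9 (-0.14, adjusted p = 0.695) were not called. S100a8 and S100a9 were picked out after their values were seen. Leaving out 1 array gave 2 to 5 neutrophil markers called higher. Of 14 tested acute phase genes Lcn2 was the 1 called, while without NiO array 1, 4 were called higher and 1 lower.

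Slc26a4, the anion exchanger pendrin of secretory epithelia, rose in NiO lungs. It lay at 0.39, 0.32 and 1.19 in clean-air and 3.90, 4.74, 4.82 and 4.65 in NiO lungs, with array 1 the lowest of the 4, and its fold was 3.90 (SE 0.30; adjusted p = 0.00154). It was the 1 called among 9 tested mucus and goblet cell genes. Itih1, a hyaluronan-binding serum protein, lay at -6.06, -6.34 and -5.36 in clean-air and -2.15, -2.40, -1.47 and -1.64 in NiO lungs and was at least 9.29-fold higher, no clean-air array being well above background (adjusted p = 0.00154). Dmkn, or dermokine, a secreted epithelial protein, lay at -5.04, -4.24 and -5.13 (1 of 3 clean-air arrays well above background) and -1.66, -1.22, -1.48 and -1.04; its fold was 3.46 (adjusted p = 0.00147). Sdcbp2, a PDZ-domain scaffold protein, was at least 4.48-fold higher (adjusted p = 0.0124; call lost without clean-air array 1 or 2, adjusted p = 0.058 to 0.063, also with normexp at 0.0811). Slc17a1, a phosphate and urate transporter, was at least 3.82-fold higher (adjusted p = 0.00884; call lost without clean-air array 1, adjusted p = 0.0541, also with normexp at 0.0781), and the olfactory receptor gene Or8u3 at least 3.15-fold (adjusted p = 0.00666). Spmip8 rose by 3.54 (call lost without clean-air array 1 or 3, adjusted p = 0.0504 to 0.0582).

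Among the 15 largest rises, those on which the 4 NiO arrays spread most were Rnase9, Atp6v0d2, Spmip8, Slc17a1 and Sdcbp2. Rnase9, a member of the ribonuclease A family, was spread on both sides. It lay at -7.28, -4.29 and -7.09 in clean-air lungs, where array 2 was the only 1 of 3 well above background, and at -1.88, 0.18, -1.08 and -0.70 in NiO lungs. Its fold of 5.35 (SE 0.79; adjusted p = 0.0155) became 6.31 without clean-air array 2, and the call was lost in 4 other fits (call lost without clean-air array 1 or 3 or NiO array 4, adjusted p = 0.0532 to 0.0756, and without both NiO array 2 and array 3 at 0.0615). Spmip8 ranged over -1.15, -0.027, 0.81 and -0.11 on NiO arrays 1 to 4 and Slc17a1 over -4.12, -2.52, -2.47 and -3.66. For both genes arrays 2 and 3 were higher than array 1, and Sdcbp2 had the same order (-3.90, -2.92, -1.97 and -3.07).

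Complement genes were called higher in 6 of 27 cases and never lower, with a list median of 0.20. C3, the central complement protein, was abundant at 4.17, 3.96 and 4.11 and reached 6.05, 5.73, 5.80 and 6.20, a fold of 1.86 (SE 0.15; adjusted p = 0.00184). The subunits of C4b-binding protein, an inhibitor of the cascade, rose as well: C4bpb by 1.71 (adjusted p = 0.0022) and C4bpa by 1.79 (call lost without clean-air array 1 or 2 or NiO array 2 or 4, adjusted p = 0.0505 to 0.0859). C3ar1, the receptor of the C3a fragment, rose by 1.02 (call lost without clean-air array 1, 2 or 3 or NiO array 4, adjusted p = 0.0623 to 0.104, also with an intensity trend at 0.0537, with quantile normalization at 0.0618, with normexp at 0.143 and with no filter on dim probes at 0.0563). The number of complement genes called was 2 to 9 when 1 array was left out.

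Of 24 tested Nrf2 target genes 3 were called, all higher, and the list's median of 0.03 lay beside that of all genes. Haem oxygenase 1, encoded by Hmox1, lay at 1.36, 1.21 and 1.44 in clean-air and 2.91, 2.93, 2.77 and 2.70 in NiO lungs, so that the 4 NiO arrays agreed closely, and rose by 1.49 (SE 0.12; adjusted p = 0.00184). Akr1b8, an aldo-keto reductase, lay at 1.32, 1.43 and 1.72 in clean-air and 2.46, 3.46, 3.54 and 3.44 in NiO lungs, with array 1 about a log2 unit below the other 3, and its fold was 1.74 (call lost without clean-air array 1, 2 or 3 or NiO array 2, 3 or 4, adjusted p = 0.0515 to 0.108). Srxn1, or sulfiredoxin, rose by 1.06 (call lost without clean-air array 1, 2 or 3 or NiO array 2, 3 or 4, adjusted p = 0.0642 to 0.158, also with an intensity trend at 0.0555, with quantile normalization at 0.052, with normexp at 0.171 and with no filter on dim probes at 0.0814). The quinone reductase gene Nqo1, picked out after its values were seen, had a difference of -0.51 (adjusted p = 0.0791). The Nrf2 list had 10 higher and 5 lower without NiO array 1. Of 20 tested metallothionein, zinc and iron genes 2 were called, both of iron transport: the transferrin receptor gene Tfrc (1.17; call lost without clean-air array 1, 2 or 3, adjusted p = 0.0528 to 0.0572) and the transferrin gene Tf (0.79; call lost without clean-air array 1, 2 or 3 or NiO array 3 or 4, adjusted p = 0.0982 to 0.168, also with median scaling at 0.116, with quantile normalization at 0.0623 and with no filter on dim probes at 0.100). Of these 20 genes, 7 were called higher and 1 lower without NiO array 1. Metallothionein Mt1, picked out after its values were seen, had a log2 fold of -0.028 (adjusted p = 0.944), from 0.58, 0.41 and 0.60 in clean-air to 0.80, -0.02, 0.49 and 0.73 in NiO lungs.

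Genes of cell division were called higher in 9 of 29 cases and lower in none, with a list median of 0.70. The mitotic kinase gene Ttk lay at -3.15, -3.11 and -2.80 in clean-air and -2.16, -2.04, -1.76 and -1.69 in NiO lungs and rose by 1.11 (SE 0.17; call lost without clean-air array 1 or 2 or NiO array 4, adjusted p = 0.0524 to 0.0935). The cyclin genes Ccnb2 (0.98, adjusted p = 0.00614) and Ccne1 (0.97; call lost without clean-air array 1, 2 or 3 or NiO array 2, 3 or 4, adjusted p = 0.0929 to 0.182, also with median scaling at 0.0583, with quantile normalization at 0.0518 and with no filter on dim probes at 0.100) and the DNA topoisomerase gene Top2a (1.07, adjusted p = 0.00846; call lost without clean-air array 1 or 2, adjusted p = 0.0536 to 0.0607, also with the mean of its probes at 0.0666) were called too. A second probe of Top2a gave 0.44 against 1.07. Leaving out 1 array gave 1 to 16 called genes, the highest without NiO array 1, and median scaling and no filter on dim probes gave 3 each. The median difference by array was 0.52, 0.47, 0.74 and 0.75, lowest on arrays 1 and 2. Cell cycle genes were not uniform, though. Hmmr, a hyaluronan receptor of the mitotic spindle picked out after its values were seen, lay at -0.80, 2.81, 3.26 and 0.90 on NiO arrays 1 to 4 against -0.92, 0.18 and -0.67 in clean-air lungs (adjusted p = 0.236).

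Genes of sterol and fatty acid synthesis were called higher in 5 of 24 cases, with a median of 0.46. Among them were the squalene synthase gene Fdft1 (1.11), Insig1 (1.07), which retains the sterol regulator in the endoplasmic reticulum, Sqle (1.06) and Idi1 (0.79). The number called was 0 to 10 when 1 array was left out, the highest without NiO array 1. The calls of Fdft1, Idi1 and Insig1 were lost without any single array other than NiO array 1, with adjusted p of 0.0574 to 0.140, 0.0826 to 0.184 and 0.0808 to 0.157; that of Sqle was lost without clean-air array 1, 2 or 3 or NiO array 4 (0.0562 to 0.0985). With median scaling 3 of the list were called, Idi1 not among them (0.103). With no filter on dim probes none was: adjusted p was 0.0726 for Fdft1, 0.0508 for Sqle, 0.0816 for Insig1 and 0.107 for Idi1. In the list of unfolded protein and amino acid stress 3 of 20 were called, all higher (median 0.33), with 6 without NiO array 1 and 0 or 1 without any other. They were Chac1, a glutathione-degrading enzyme (1.37; call lost without clean-air array 1, 2 or 3 or NiO array 4, adjusted p = 0.0524 to 0.0647), the pseudokinase gene Trib3 (1.19; call lost without clean-air array 1, 2 or 3 or NiO array 2, 3 or 4, adjusted p = 0.0826 to 0.177, also with median scaling at 0.0501 and with no filter on dim probes at 0.0911) and Ero1a (0.76; call lost without clean-air array 1, 2 or 3 or NiO array 2, 3 or 4, adjusted p = 0.078 to 0.141, also with median scaling at 0.051, with no filter on dim probes at 0.0888 and with the mean of its probes at 0.130), whose other probe gave -0.02. In glycolysis and hypoxia 3 of 25 were called (median 0.34): hexokinase 2, at least 2.96-fold higher and not well above background in clean-air lungs (adjusted p = 0.00525), the lactate exporter gene Slc16a3 (1.41; call lost without clean-air array 1, 2 or 3 or NiO array 2 or 4, adjusted p = 0.0542 to 0.0796) and the glucose transporter gene Slc2a1 (0.82; call lost without clean-air array 1, 2 or 3 or NiO array 2, 3 or 4, adjusted p = 0.0665 to 0.119, also with median scaling at 0.0644 and with no filter on dim probes at 0.0725). Of this list 11 were called higher and 1 lower without NiO array 1, and without any other single array 1 or 2 were called higher.

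**Figure D2:**
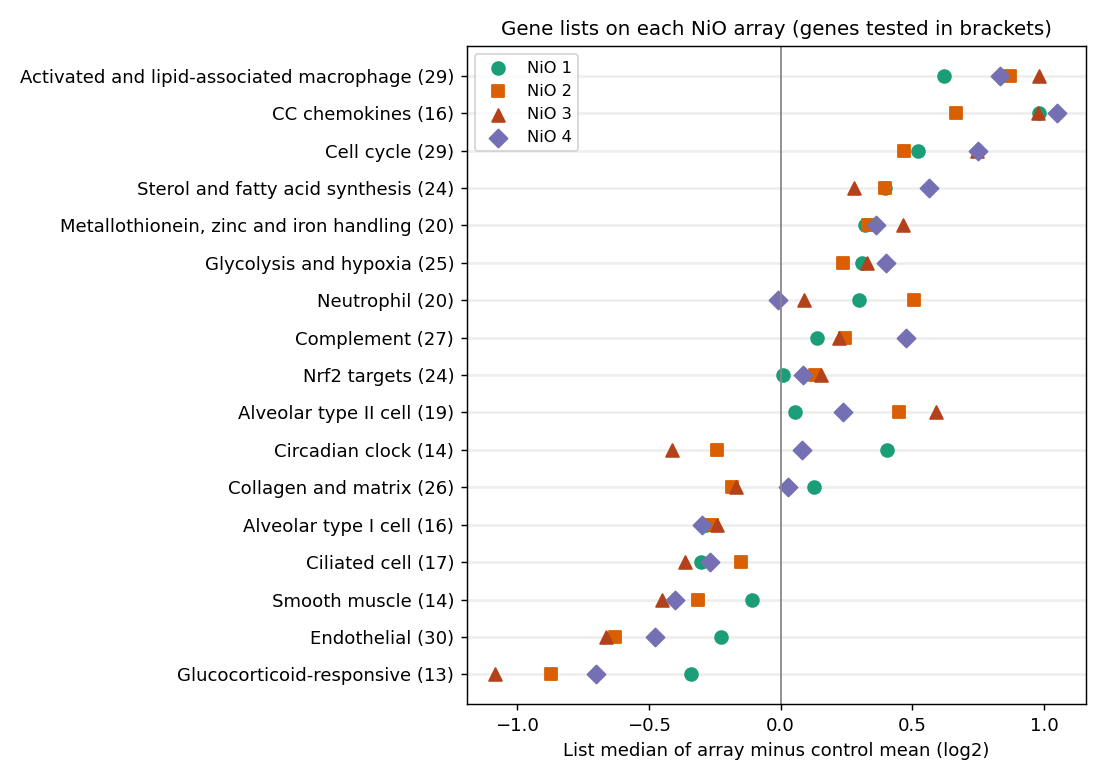
Median log2 difference from the clean-air mean over the tested genes of 17 gene lists, for each NiO array (marks), with the number of genes tested in brackets. The 4 arrays lie on the same side for macrophage, CC chemokine and cell cycle genes, while array 1 is nearest to 0 for endothelial and glucocorticoid-responsive genes and on the other side from arrays 2 and 3 for circadian clock genes.

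Structural lung cells gave few calls. No endothelial gene of 30 was called. The list's median was -0.45, and 15 of 30 had all NiO arrays below all clean-air arrays, against 11.9 percent of all genes. The median by array was -0.23, -0.63, -0.66 and -0.47. Eng, or endoglin, had the largest difference, -1.16 (adjusted p = 0.161), and read 3.03, 1.27, 1.61 and 2.45 on NiO arrays 1 to 4, so that array 1 lay within the clean-air range (3.31, 3.43 and 2.99). Without NiO array 1, 16 endothelial genes were called lower, Eng among them (-1.47, adjusted p = 0.0266), and without any other single array none was. Over all 22720 genes, the fit without NiO array 1 called 2758 lower and 3240 higher. No gene was called among 16 type I cell markers (median -0.24), 16 club cell and xenobiotic genes (-0.31), 17 ciliated cell genes (-0.27), 14 smooth muscle genes (-0.35) or 26 collagen and matrix genes (-0.11). In that order, without NiO array 1, 6, 4, 5, 5 and 3 were called lower and 1, 1, 0, 0 and 4 higher. The largest differences were Akap5 (-0.83, adjusted p = 0.0714), Scgb1a1 (-0.80, 0.133), Dnai1 (-0.75, 0.113), Lmod1 (-1.03, 0.194) and Col8a1 (-1.26, 0.0868), and each was called without NiO array 1. Of 19 type II cell markers Lamp3, a lysosomal protein of lamellar bodies, was called higher (0.76; call lost without clean-air array 1, 2 or 3 or NiO array 2, 3 or 4, adjusted p = 0.0601 to 0.111, also with median scaling at 0.0508, with quantile normalization at 0.0501 and with no filter on dim probes at 0.0724). Without NiO array 1, 8 were called higher and 2 lower.

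Other immune and blood lists gave few calls. No gene was called among 24 T and NK cell markers, 11 B and plasma cell markers or 12 MHC class II genes. Leaving out NiO array 1 gave 2, 1 and 4 of these called higher, in that order. Over all 22720 genes that fit called 3240 higher and 2758 lower. The widest differences were Cd2 (0.67, adjusted p = 0.0561), the immunoglobulin joining chain gene Jchain (2.11, 0.0714; -0.80, 0.015, 1.34 and -0.099 on the NiO arrays) and Cd86 (0.73, 0.179). Of 27 interferon response genes Ifit2 was called (1.04; call lost without clean-air array 2 or 3, adjusted p = 0.0582 to 0.0588, also with the mean of its probes at 0.222), and its other probe gave 0.12; without NiO array 1, 3 of the list were called higher and 2 lower. Alox15, the lipoxygenase of eosinophils and resident macrophages, fell by 2.49 on the log2 scale, from -2.10, -0.93 and -1.75 to -3.12, -4.17, -4.63 and -4.39 (call lost without clean-air array 1, 2 or 3 or NiO array 2, 3 or 4, adjusted p = 0.0533 to 0.0927). For Alox15 only 2 of the 4 NiO arrays were well above background. Klf1, an erythroid transcription factor, fell by 0.89 (call lost without clean-air array 1, 2 or 3 or NiO array 2, 3 or 4, adjusted p = 0.0596 to 0.156, also with an intensity trend at 0.0752, with normexp at 0.537 and with no filter on dim probes at 0.102), and the blood group gene Ermap had a difference of 1.28 (adjusted p = 0.174). In the proteasome and respiratory chain lists, 0 of 27 and 0 of 29 genes were called by limma. The counts were 5 higher and 2 lower, and 1 higher and 3 lower, without NiO array 1; the widest differences were Psmd11 (-0.50, 0.163) and Ndufa2 (-1.03, 0.101). None of 16 heart muscle and 13 fat cell genes was called (1 heart muscle gene higher and 2 lower without NiO array 1); Myh7 had a difference of 0.92 (adjusted p = 0.0733). The brown fat gene Ucp1 read -0.85, 2.93 and -1.61 on the clean-air and 2.72, 2.00, 1.44 and 0.29 on the NiO arrays (adjusted p = 0.421).

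Tac1, the precursor of the neuropeptides substance P and neurokinin A, was the fall with the widest difference in level, on a probe that read at background in NiO lungs. It lay at -1.03, -0.90 and -1.14 on clean-air arrays 1 to 3 and at -7.60, -6.51, -6.84 and -7.36 on NiO arrays 1 to 4, none of the latter well above background (probe at chr4:32657311-32657369 of rn4). The groups did not overlap, and the gene was at least 15.5-fold lower in NiO lungs (adjusted p = 0.000154). With normexp correction its fold was -2.24, nearer 0 than those of Serpinb10 (-2.93) and Dsg2 (-2.50). Neuropeptide Y, encoded by Npy, fell by 1.58 on the log2 scale, from 3.18, 3.24 and 2.71 to 1.89, 1.37, 0.85 and 1.76 (call lost without clean-air array 1, 2 or 3 or NiO array 2 or 4, adjusted p = 0.058 to 0.130, also with no filter on dim probes at 0.0616). The other 12 of 14 tested neuroendocrine genes were not called. Serpinb10, a protease inhibitor of bone marrow-derived cells, lay at 2.48, 2.68 and 2.64 in clean-air and -1.32, -0.67, -0.36 and 0.025 in NiO lungs, with array 1 lowest, and fell by 3.18 (SE 0.30; adjusted p = 0.00283). Csprs lay at -3.80, -3.63 and -4.10 in clean-air and -7.31, -6.18, -6.11 and -6.97 in NiO lungs and was at least 2.2-fold lower (adjusted p = 0.00627), with no NiO array well above background.

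For the other 11 of the 15 largest falls, Fbp1 being given above, the clean-air slide of 3 days stood apart from all other slides, as described further on. Dsg2, a desmosomal cadherin, lay at 0.32, 0.0028 and 0.01 in clean-air and -3.55, -3.49, -3.44 and -3.46 in NiO lungs and fell by 3.59 (SE 0.13; adjusted p = 9.89e-05), with 4 nearly equal NiO values. Ntm, or neurotrimin, a neural adhesion protein, lay at -1.31, -1.31 and -1.21 in clean-air and -5.17, -4.89, -5.29 and -4.14 in NiO lungs. It fell by 3.60 (adjusted p = 0.00154), but only 2 of the 4 NiO arrays were well above background, and normexp gave -1.68. Spry4, a feedback inhibitor of receptor tyrosine kinases, lay at -1.44, -1.59 and -2.63 in clean-air and -5.08, -6.01, -5.45 and -5.18 in NiO lungs. It fell by 3.54 (adjusted p = 0.0033), but only 1 of the 4 NiO arrays was well above background, and normexp gave -1.35. Spry4 was the 1 called of 16 tested genes of that feedback list. Osbp2, an oxysterol-binding protein, was at least 4.3-fold lower (adjusted p = 0.0062), while its other probe, dim on all 7 arrays, gave 0.37. Ctxn1 fell by 3.14 (adjusted p = 9.89e-05), Frem2, a basement membrane protein, by 2.71 (0.00114), and F2rl3, a thrombin receptor, by 2.61 (0.000554). Ptprq, a receptor phosphatase, fell by 2.50 (0.00102) and Calb2, or calretinin, a mesothelial marker, by 2.60 (0.00641). For Ptprq only 1 of the 4 NiO arrays was well above background, and normexp gave -0.62. The orexin receptor gene Hcrtr1 was at least 2.53-fold and Pnma5 at least 2.85-fold lower (adjusted p = 0.00333 and 0.00258), neither being well above background on any NiO array.

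Background correction moved the size of many of these folds. With the normexp correction, which raises dim signals, the fold was nearer 0 for all 30 of the largest rises and falls and over 1.5 times smaller for 25, but it kept its sign for all 30. Mmp12 then rose by 5.65, Mmp7 by 2.17, Rnase9 by 2.41 and Cxcl2 by 2.17, while Cd177 (4.22), Trem2 (3.46), Slc26a4 (3.80) and Lcn2 (3.14) moved little. Tac1 was at -2.24, Dsg2 at -2.50 and Serpinb10 at -2.93. Of the 30 genes 22 were called, 12 of 15 rises and 10 of 15 falls. The 8 lost were Slc17a1 (adjusted p = 0.0781), Sdcbp2 (0.0811), Or8u3 (0.0513), Osbp2 (0.0552), Hcrtr1 (0.158), Csprs (0.317), Pnma5 (0.166) and Ptprq (0.0944).

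The 4 NiO arrays did not agree equally. Across genes, which are not independent replicates, NiO arrays 2 and 3 correlated at 0.990 and the clean-air arrays at 0.991 to 0.992. NiO arrays 1 and 4 correlated at 0.983, array 4 with arrays 2 and 3 at 0.973 and 0.972, and array 1 with them at 0.948 and 0.944. NiO array 1 correlated at 0.979 to 0.981 with the clean-air arrays, more than it did with NiO arrays 2 and 3. Counted by genes at least 1 log2 unit apart, arrays 2 and 3 differed in 640 genes, arrays 1 and 4 in 987, arrays 1 and 2 in 4393 and arrays 1 and 3 in 4629, against 418 to 501 among the clean-air arrays. From the clean-air mean, 1006, 4257, 4293 and 1426 genes were at least 1 log2 unit away on NiO arrays 1 to 4. The median standard deviation of a gene was 0.137 in the clean-air and 0.295 in the NiO group, and it was larger in the NiO group for 81.7 percent of genes.

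**Figure D3:**
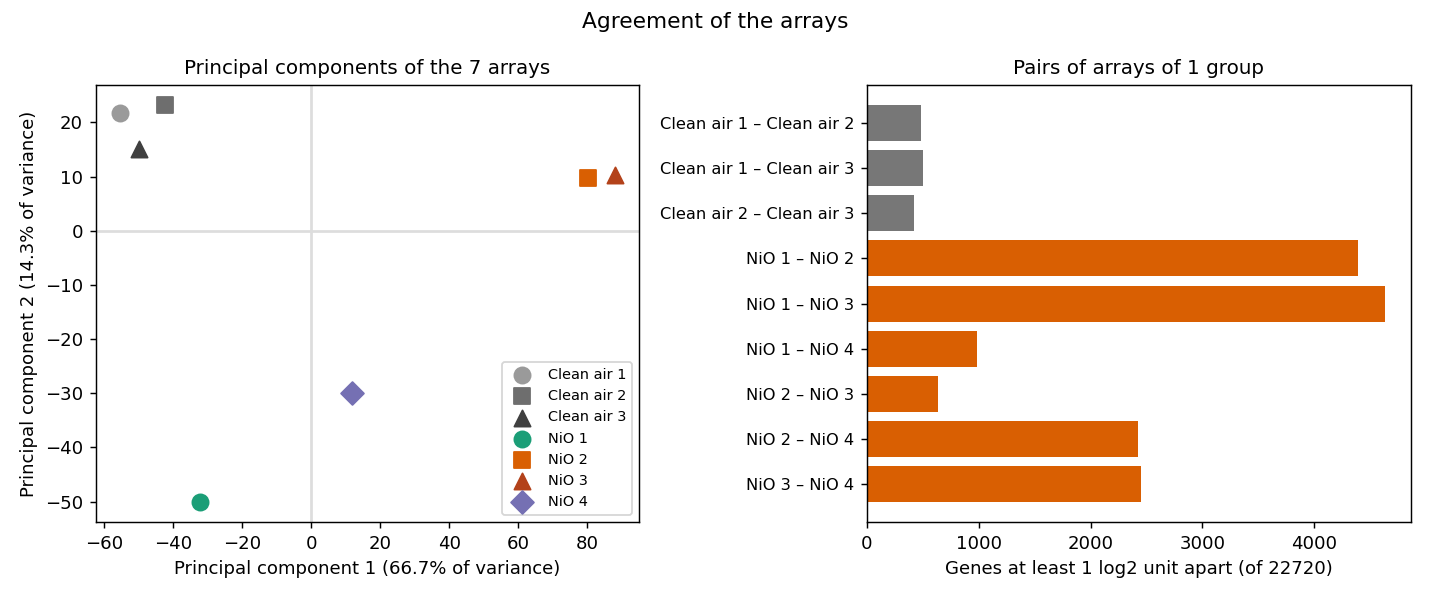
Left, the first and second principal components of the 7 arrays, in arbitrary units, with clean-air arrays in grey. Right, the number of genes at least 1 log2 unit apart in each pair of arrays of 1 group: NiO arrays 2 and 3 lie together at the right end of the first component, array 1 lies on the clean-air side of it, and array 4 between.

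The first principal component held 66.7 percent of the variance and ran from the clean-air arrays (-55.3, -42.5 and -49.9) over NiO array 1 (-32.3) and array 4 (11.8) to arrays 2 and 3 (80.2 and 88.0). On the second component (14.3 percent), NiO array 1 (-50.2) and array 4 (-30.0) lay apart from the other 5, which were between 9.75 and 23.3. All 831 called genes differed from the clean-air mean in 1 direction on all 4 NiO arrays. Their median difference from the clean-air mean was 1.01, 1.27, 1.30 and 1.23 on NiO arrays 1 to 4 for the 541 higher and -1.06, -1.21, -1.19 and -1.16 for the 290 lower. The call itself favours genes on which the arrays agree. Array 1 had the smallest difference of the 4 for 325 of the 541 and 109 of the 290. Genes on which the arrays split were not called, such as Rab15, a vesicle transport GTPase picked out after its values were seen. Rab15 lay at 3.72, -3.32, -2.99 and 0.52 on NiO arrays 1 to 4 against 2.80, 2.53 and 3.18 in clean-air lungs (adjusted p = 0.247).

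The split between the NiO arrays had named genes of its own. Circadian clock genes had a median difference of 0.40, -0.24, -0.41 and 0.08 on NiO arrays 1 to 4, and the clock gene Per1 lay at 1.72, 0.20, -1.17 and 1.03 against 2.48, 2.05 and 2.09 in clean-air lungs (-1.76, adjusted p = 0.158). The clock repressor gene Bhlhe41 was called higher on all 4 (1.53; call lost without clean-air array 1, 2 or 3 or NiO array 2 or 4, adjusted p = 0.0603 to 0.104), its other probe giving 0.66. Glucocorticoid-responsive genes had medians of -0.34, -0.87, -1.08 and -0.70, with 1 of 13 called: Errfi1, a feedback inhibitor of the EGF receptor, which fell by 0.81 (call lost without clean-air array 1, 2 or 3 or NiO array 2, 3 or 4, adjusted p = 0.0663 to 0.115, also with quantile normalization at 0.051 and with no filter on dim probes at 0.0759). Without NiO array 1, 8 of the 13 were called lower. In this list Zbtb16 lay at -2.43, -5.48, -4.66 and -3.90 against -2.69, -2.17 and -1.66 (adjusted p = 0.151), so that array 1 was level with the controls. For Zbtb16 only 2 of the 4 NiO arrays were well above background. Among the feedback and immediate early genes, the growth factor-responsive gene Etv5 lay at -0.38, -2.94, -3.21 and -1.85 (-1.25, adjusted p = 0.272) and the phosphatase gene Dusp1 at 3.10, 2.50, 1.99 and 2.55 (-1.16, adjusted p = 0.0687). Signal level and probe composition moved with the split. For genes with a clean-air mean level of -4 or lower, the median difference from that mean was 0.12, 0.85, 0.92 and 0.26 on NiO arrays 1 to 4. The same mean sorted the genes and was subtracted, and genes this dim could pass the filter through the NiO arrays alone. Values above 0 there are therefore partly built in. For probes with at most 35 percent GC the median difference was -0.13, 0.21, 0.24 and 0.09. For those above 50 and up to 55 percent it was 0.01, -0.16, -0.12 and -0.10. The part of signal level and probe composition in the split was not tested.

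The number of calls and the calls of single genes depended on the array left out. Without NiO array 1, 5998 genes were called, among them 830 of the 831; without NiO array 2, 3 or 4 the count was 399, 488 and 339, and without clean-air array 1, 2 or 3 it was 188, 214 and 234. Of 70 called genes that the naming rule took, the 30 largest changes and members of the lists, 36 were called whichever single array was left out. Without clean-air array 1, 2 or 3 it was 37, 40 and 41 of the 70, and without NiO array 1, 2, 3 or 4 it was 70, 52, 56 and 44. Of the 30 largest changes alone 25 were called whichever single array was left out, including Mmp12, Cd177, Mmp7, Trem2, Cxcl2, Tac1 and Dsg2. The 5 that were not are Rnase9, Spmip8, Slc17a1, Sdcbp2 and Fbp1, whose losses are given with their values. Without both NiO array 2 and array 3, 546 genes were called. A fit that estimates a weight for each array gave NiO array 1 the lowest weight (0.16, against 1.30, 1.24 and 0.53 for NiO arrays 2 to 4 and 1.29 to 3.03 for the clean-air arrays) and called 9588 genes.

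**Figure D4:**
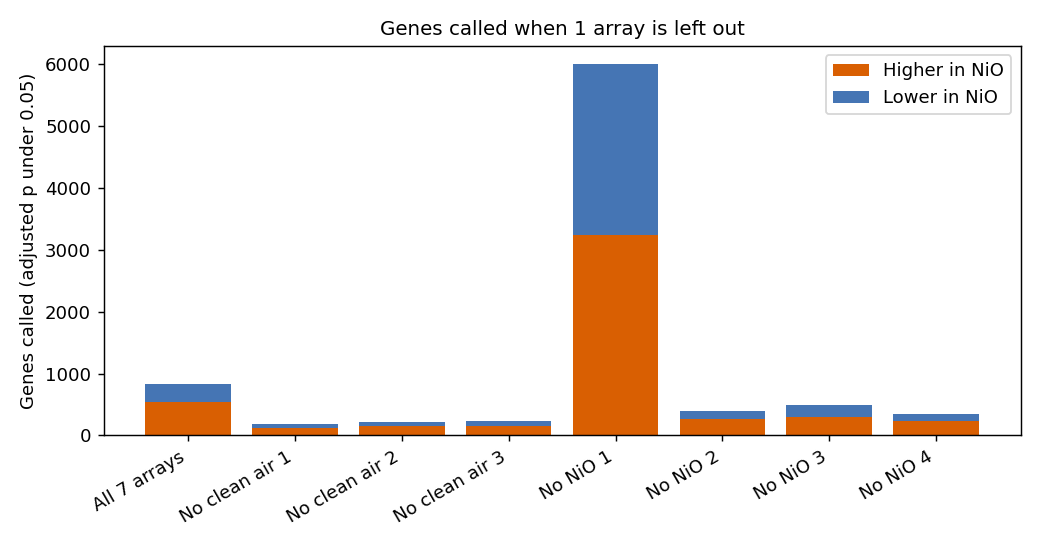
Number of genes called by limma at an adjusted p under 0.05, higher (orange) and lower (blue) in NiO lungs, with all 7 arrays and with each array left out in turn. The bar without NiO array 1 reaches 5998 genes and the others lie between 188 and 831.

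With a single group on each slide, a slide effect and a NiO effect cannot be told apart here, and the other 4 groups served to see whether the clean-air slide stood apart. It did so, by at least 1 log2 unit from the means of all other 5 slides, for 251 of 22720 genes (1.10 percent) but for 185 of the 831 called genes (22.3 percent), of which 122 were rises and 63 falls. The NiO slide of 3 days stood apart in the same sense for 514 genes (2.26 percent) and for 52 of the called (6.26 percent). Its other 5 slides include NiO of 1 month. A NiO change still present at 1 month, as for Trem2 and Tac1, can therefore keep a gene out of this count. The C60 slide of 3 days stood apart for 4 of the called genes (0.481 percent) and 62 of all genes (0.273 percent). For the 1-month slides of clean air, C60 and NiO it was 9, 0 and 1 of the called (1.08, 0 and 0.120 percent). Of all genes it was 163, 21 and 12 (0.717, 0.0924 and 0.0528 percent). A call needs the clean-air and NiO slides of 3 days to differ, so for both of these the share among called genes lies above that of all genes by construction. From the median of the other 4 groups, which also hold NiO of 1 month, the clean-air slide was the farther of the 2 for called genes. Its median distance was 0.79 for called rises and 0.82 for called falls, against 0.37 and 0.35 for the NiO slide. Over all genes tested the median distances were 0.15 for the clean-air and 0.16 for the NiO slide, with NiO farther for 50.8 percent. The serial of the clean-air slide of 3 days lay 1354 before the next, while the serials of the other 5 followed each other in steps of 1.

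Against groups other than the 3-day controls, the differences of the called genes were smaller. The 1-month slides were scanned on another day than the 3-day slides, and their lungs were taken 33 and not 3 days after exposure. The part of scan day and of age in these differences was not tested. The median difference of the 541 rises was 1.20 log2 units against the 3-day clean-air mean, 0.07 against clean air of 1 month, 0.58 against C60 of 3 days and 0.49 against C60 of 1 month. In that order of the last 3 groups, 291, 409 and 399 of the 541 were on the same side, and 103 (19.0 percent), 177 (32.7 percent) and 154 (28.5 percent) lay at least 1 log2 unit above, against 6.19, 7.67 and 11.4 percent of all genes. For the 290 falls the median was -1.18 against the 3-day clean-air mean and -0.71, -0.30 and -0.36 against the others. At least 1 log2 unit below them lay 80 (27.6 percent), 37 (12.8 percent) and 61 (21.0 percent), against 5.18, 1.36 and 4.28 percent of all genes. Set against all 4 groups without NiO at once, 80 of the 371 rises of at least 1 log2 unit (21.6 percent) stayed above each of them by at least 1, as did 2.30 percent of all genes. Of the 186 falls of that size 21 (11.3 percent) stayed below each by at least 1, as did 0.260 percent of all genes. All these shares use the NiO arrays by which the genes were called, and the 3-day clean-air group is 1 of the 4. They therefore lie above those of all genes partly by construction.

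**Figure D5:**
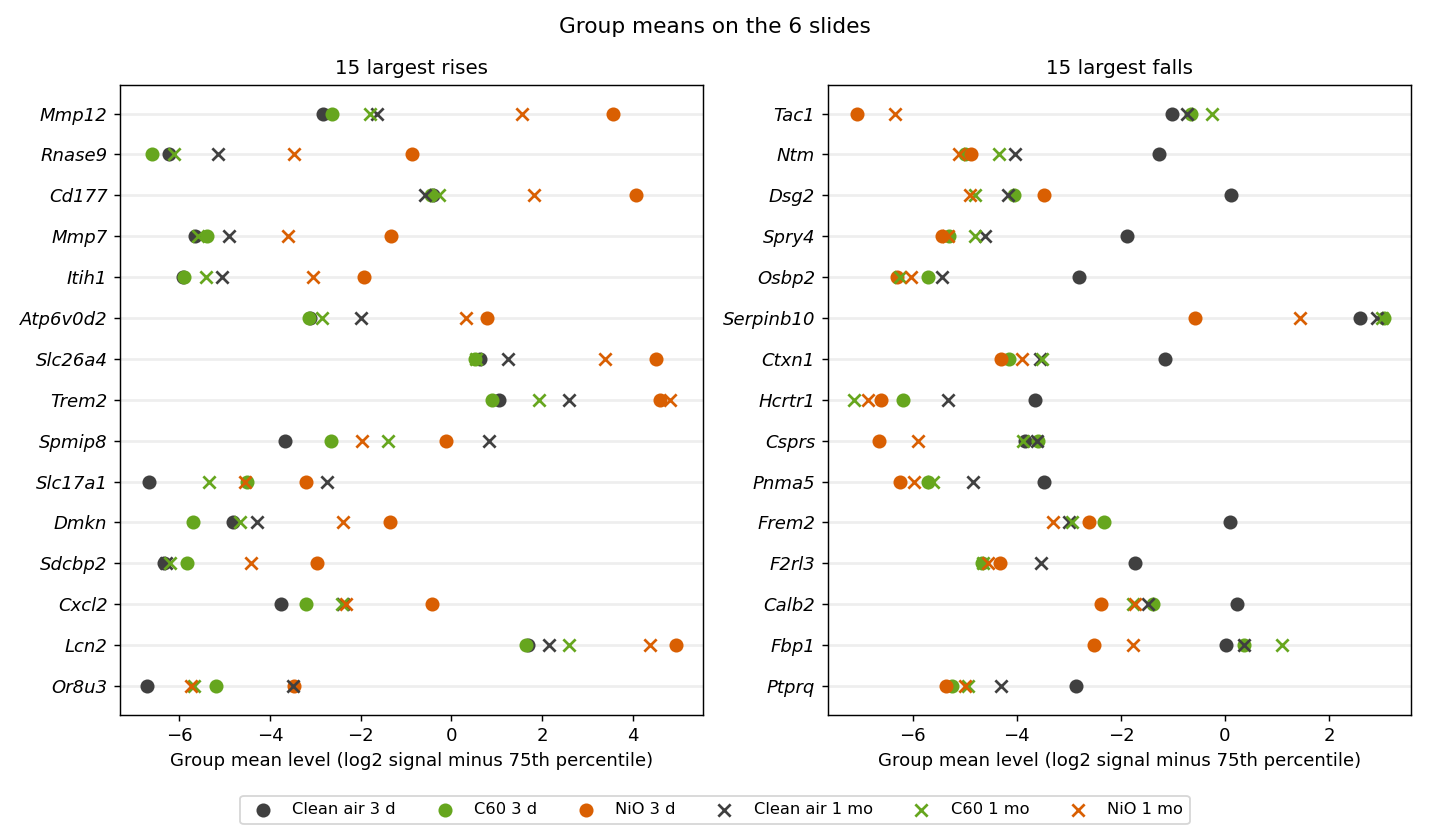
Mean level of each of the 6 groups for the 15 largest rises (left) and falls (right), in log2 signal relative to the array's 75th percentile; circles are the 3-day and crosses the 1-month groups. For 11 of the 15 falls the 3-day clean-air mean alone lies to the right of the other 5, while for Mmp12, Cd177 and Tac1 it lies with the other groups without NiO.

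By gene, the named rises and falls differed in this check. Among the 15 rises, 12 lay at least 1 log2 unit above all 4 groups without NiO, and the clean-air slide stood apart for Spmip8 and Slc17a1. Mmp12 had group means of -2.84, -2.64, 3.58, -1.64, -1.78 and 1.57 in the order clean air, C60 and NiO at 3 days and the same at 1 month. The means of Cd177 were -0.40, -0.44, 4.06, -0.58, -0.27 and 1.82 in that order, those of Trem2 1.06, 0.91, 4.61, 2.60, 1.93 and 4.83 and those of Cxcl2 -3.75, -3.21, -0.42, -2.40, -2.41 and -2.32. For Cxcl2 the NiO mean of 3 days stood above all other slides. Or8u3 had means of -6.72, -5.19, -3.47, -3.49, -5.67 and -5.74, so that the 1-month clean-air lungs reached the NiO level. Among the 15 falls, 4 lay at least 1 log2 unit below all groups without NiO: Tac1 (-1.02, -0.64, -7.08, -0.73, -0.24 and -6.34), Serpinb10 (2.60, 3.06, -0.58, 2.93, 3.01 and 1.43), Csprs (-3.85, -3.58, -6.64, -3.62, -3.87 and -5.91) and Fbp1 (0.0096, 0.37, -2.52, 0.37, 1.09 and -1.76). For each of these the NiO lungs of 1 month were also below the groups without NiO. For the other 11 the 3-day clean-air slide stood apart. Dsg2 had means of 0.11, -4.05, -3.48, -4.18, -4.80 and -4.90, Ntm -1.28, -4.99, -4.87, -4.03, -4.34 and -5.12, Ctxn1 -1.16, -4.15, -4.30, -3.55, -3.52 and -3.90 and Frem2 0.098, -2.32, -2.61, -2.99, -2.94 and -3.31. In these 4 genes the 3 other groups without NiO lay at least 2 log2 units below the 3-day clean-air mean. A further set of rises, picked out after their values were seen, stayed above all groups without NiO by at least 1. It held Arg1, arginase 1, at 2.06, 2.20 and 2.00 in clean-air and 4.12, 4.75, 5.02 and 4.71 in NiO lungs (2.56, adjusted p = 0.00184), Noxo1, an organiser of NADPH oxidase, at -1.26, -1.38 and -0.69 in clean-air and 1.11, 2.09, 1.90 and 1.74 in NiO lungs (2.82, adjusted p = 0.00333), and Spp1 at -0.18, 0.22 and 0.71 in clean-air and 2.43, 2.57, 2.56 and 2.69 in NiO lungs (adjusted p = 0.00258).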

How the data were processed

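Gene expression in right lungs was read on 7 1-colour arrays, 3 of clean-air and 4 of NiO rats. Per the file headers, Feature Extraction 9.5.3.1 turned scans into the deposited processed intensity, with background already subtracted. The labels' n is taken to mean 1 rat per array; if that is wrong, the p-values reflect technical spread only, since they rest on differences between arrays of a group. The value table the authors deposited holds a linear ratio to control per group; its NiO column matched a rebuilt ratio to a median of 0.00106 log2 units, how it was made is unstated, and it entered no test. Of the C60 slide of 3 days, arrays 1 and 2 were used, as the label's n of 2 and this table have it (all 4 arrays differed from the table by 0.109).

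Control spots and spots with an outlier mark were left out, spots of 1 probe averaged, and log2 intensity minus the array's 75th percentile taken for 41012 probes. Probes had to be well above background on all arrays of either group (25867 did), and the brightest kept probe stood for a gene (22720 genes, 11103 with a symbol). Names came from a RefSeq gene table of assembly GRCr8, by accession for 10763 probes, by another accession for 98, by current symbol for 5018 and by older symbol for 3385, and from the files for 143. The other probes on the array went by probe identifier. Probe positions are those of the files (build rn4).

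Groups were compared with limma 3.58.1 in R 4.3.3 (lmFit and eBayes, 5 residual and 2.4 prior degrees of freedom) and p-values adjusted by Benjamini-Hochberg over all genes. On simulated data the fit recovered 44 of 100 genes changed by 1 log2 unit and 94 of 100 changed by 3, with 15 false calls. A gene not called may therefore still have changed by 1 log2 unit. The simulation gave both groups the same spread, while the real spread was larger in the NiO group for 81.7 percent of genes. A bound, "at least N-fold", sets the brighter group's mean against, per array, the higher of the dim probe's value and the lowest value well above background. Named are the 15 largest rises and 15 largest falls among called genes with a symbol and no overlap, up to 4 called members of each of 39 gene lists, and, where fewer than 2 were called, the member with the widest difference; others are said to be picked out after their values were seen. The comparison, the lists and this rule were chosen with earlier results of these data known. Scan days did not differ between the 2 groups; each slide held 1 group. The number of arrays limits the precision. In all, 17 alternative settings were tried. Figures were drawn with matplotlib 3.10.9.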

Additional observations from a re-analysis of the deposited data

Results flagged for a closer look

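In 128 sets of 4 NiO values, 1 array was looked for whose gap to its nearest neighbour takes up most of the whole range (Dixon's test for groups of 4). Chance flags about 1 in 20 such sets if they are independent. These sets share the same arrays, and many are called genes, which the call picks for close arrays. Found here were 4, fewer than that rate gives, all with NiO array 1 as the lowest. For Ccl12, a monocyte attractant, the gap was 0.902 of the range, for Akr1b8, an aldo-keto reductase, 0.901, and for C4bpa, a subunit of C4b-binding protein, 0.914. For the median of the 8 tested mesothelial markers the gap was 0.842 of the range: the medians were -0.49, -0.08, -0.08 and 0.00 on NiO arrays 1 to 4. All 3 genes were above every clean-air array on NiO array 1. This held for every gene called higher, so it gives no separate check of that array.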

How the results depend on the processing

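All 831 called genes kept their sign in every setting that tested them, except that normexp background correction kept it for 826. The clean-air and NiO levels of these genes did not overlap. Leaving out arrays, weighting them or adding groups could therefore not turn the sign, and only settings that change the signals themselves could. The number of calls depended on the settings. With all 6 groups in 1 fit, 4643 genes were called (2453 higher, 2190 lower; 1102 and 417 by at least 1 log2 unit), 794 of the 831 among them. With array weights the counts were 9588 (5221 and 4367; 2182 and 968). With normexp, 169 were lower, and 169 higher and 58 lower by at least 1 log2 unit. With no filter on dim probes 433 were called (294 higher, 139 lower), with a filter on all 7 arrays 101 were lower by at least 1 log2 unit, and without NiO arrays 2 and 3 the count was 546 (317 higher). Leaving out 1 array gave 188 to 5998 calls, 123 to 3240 higher and 65 to 2758 lower, and by at least 1 log2 unit 121 to 1477 and 65 to 771; the highest of each came without NiO array 1. Median scaling, which moved the median of all genes to -0.13, gave 389 rises and 349 falls, so that 52.7 percent of calls were rises in place of 65.1 percent. The clean-air slide stood apart for 334 called genes at 0.5 and 38 at 2 log2 units (40.2 and 4.57 percent of the called), against 185 at 1. Of all genes it stood apart for 3.61 and 0.189 percent at 0.5 and 2 log2 units. The causes of these moves were not tested, apart from the fewer genes or arrays that some settings hold. No paired analysis was possible because the labels give no replicate numbers.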
